A study of Mus musculus with 4 samples.

Results

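The Myc transcription factor, the proteins that pair or compete with it, and the nucleolar genes it is known to drive were described in 4 clones of J558, a plasmacytoma line of the BALB/c mouse. The list named 35 genes, and 34 of them were found among the 18193 genes with a probe set of their own. Mrto4, a ribosome assembly factor, was the gene left out, because its probe set carries 3 symbols. Each gene was represented by its brightest probe set, by the mean of log2(signal + 16) over the arrays. The rule picks the members by name, but the list was drawn up with earlier results of these data known.

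The control group was 2 clones that had received the empty silencing vector, and the AID-silenced group was 2 clones that had received the vector with a sequence against activation-induced cytidine deaminase (AID), the enzyme that starts hypermutation and class switching in B cells. All 4 clones also carried a neomycin resistance gene and had been grown out under G418. By the labels, 1 control clone and 1 AID-silenced clone make up pair 1 and the others pair 2, and each clone is a single drug-selected line measured on 1 Affymetrix array. The AID-silenced clones are also called silenced below. The level of the silenced gene is not reported here. A difference between groups therefore cannot be told apart from a difference between the individual clones chosen. No 2-sided exact permutation test of 2 clones against 2, with the pairs ignored, can give a p below 0.333. All 10 plasma cell markers examined, among them Sdc1, Xbp1 and Irf4, were bright enough to be tested. Of these, 6 were higher in both AID-silenced clones (26.7% of all tested genes), 0 were lower in both (27.5%) and 4 were opposite. Both AID-silenced clones were above both controls for 2 of the 10, Slamf7 and Prdm1 (14.3% of all tested genes). Pair 1 had a median difference of 0.24 across the 10, against 0.05 for pair 2. Among the 6 higher ones, Slamf7 was at a mean log2 difference of 0.98, Fkbp11 at 0.72 and Prdm1 at 0.50. The rest were Xbp1 at 0.16, Irf4 at 0.12 and Jchain at 0.06. The part of the plasma cell markers in the results below was not tested. Of 12 markers of T cells, myeloid cells, endothelium, epithelium and connective tissue, 4 were bright enough to be tested. These were Cd8a, Csf1r, Col1a2 and Pecam1, with signals between 33.6 and 495. The highest signal of the bacterial control probe sets lay between 27.2 and 41.9 on the 4 arrays. The ratio of 3′ to 5′ signal, which rises as RNA degrades, was between 0.776 and 0.807 for Gapdh. For beta-actin it was 1.27 on both arrays of pair 1. In pair 2 it was 1.12 in the control and 1.04 in the AID-silenced clone. The part of RNA quality in differences between the pairs was not tested.

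Myc is a basic helix-loop-helix leucine zipper protein that binds DNA as a dimer with Max. The dimer favours the E-box, and the proteins of the Mxd family, Mxi1 and Mnt compete for Max and recruit repressors to the same sites. Genes for ribosome production are among the best known Myc targets: RNA polymerase I makes the ribosomal precursor RNA in the nucleolus, small nucleolar ribonucleoproteins modify it, and assembly factors cut and fold it into the small and large subunits. In BALB/c plasmacytomas Myc is usually joined to an immunoglobulin locus by a chromosome translocation, which was not examined here.

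Most of these genes had a slightly lower signal in the AID-silenced clone than in its control clone, and in both pairs. Of the 34 members, all of which were bright enough to be tested, 28 were lower in both pairs, 2 were higher in both and 4 went opposite ways. Among all 10475 tested genes, 27.5% were lower in both pairs and 26.7% were higher in both. The median difference of the members was −0.20 log2 units in pair 1 and −0.19 in pair 2, whereas the median of all tested genes was 0.00 in pair 1 and −0.01 in pair 2. Taking the pairs singly, 30 of the 34 were lower in pair 1 (49.8% of tested genes) and 30 were lower in pair 2 (50.8%). The differences, read at each gene's brightest probe set, were small. Ppan and Nop56 were at least 1.25-fold lower in both pairs (5.18% of tested genes) and Ppan was the 1 member at least 1.5-fold lower in both (1.58%). Mxd1 was the 1 member at least 1.25-fold higher in both (6.97%), and 0 members were at least 1.5-fold higher in both (2.27%). A 2-fold difference with 1 sign in both pairs was reached by 0 members (0.449% of tested genes lower and 0.563% higher). Some dimmer probe sets of members differed by more, in either direction, as given below. Among them were the dimmest of Ncl, at −1.22 and −1.04, and 1 of Mxd3, at 0.65 and 0.98. The groups did not overlap for 14 members that were lower, with both AID-silenced clones below both controls, against 14.4% of tested genes, and for 2 that were higher, against 14.3%.

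No member passed limma's test over all probe sets. The adjusted p was 0.9996 for each of the 34 in the fit of the AID-silenced against the control clones, in which 2 of 22519 probe sets passed (0.00888%), and it lay between 0.387 and 0.982 with the pair as a block, in which 8 passed (0.0355%). At an unadjusted p under 0.05, limma's fit gave 2 members, Ppan and Nip7, both lower, against 3.89% of tested genes at that level in either direction and 1.66% lower. Values below are therefore descriptions of 4 clones. The levels also differed between the pairs. In both groups 28 of 34 members were higher in pair 2 than in pair 1 (26.4% of tested genes), 1 was lower and 5 went opposite ways. The median absolute difference between pairs was 0.26 log2 units in the controls and 0.33 in the silenced clones, against 0.23 between groups in each pair. With 1 clone left out the pairs were unbalanced, and the members' median mean difference of −0.20 became −0.062 without the control of pair 2, −0.10 without the silenced clone of pair 1, −0.37 without the control of pair 1 and −0.38 without the silenced clone of pair 2.

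**Figure D1:**
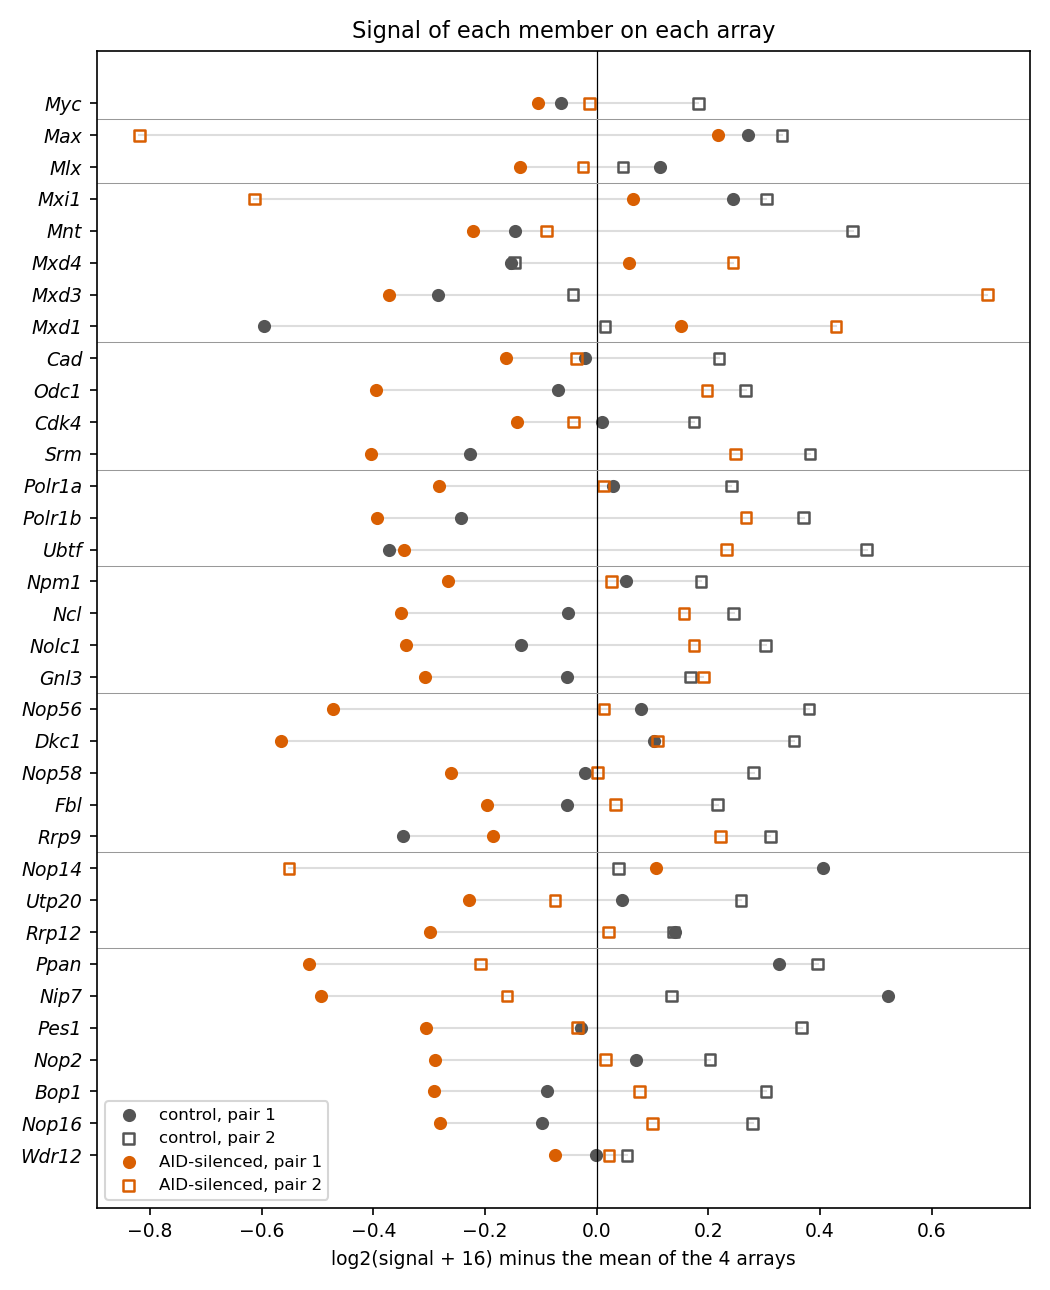
Signal of each of the 34 members on each of the 4 arrays, as log2(signal + 16) minus the gene's mean over the arrays, on the x axis; rows are genes, separated by role. Grey marks control and orange AID-silenced clones, filled circles pair 1 and open squares pair 2. Within a shape, orange lies left of grey for 30 of 34 genes in pair 1 and for 30 in pair 2.

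Myc itself had one of the smaller differences among the members. Its signals, with pair 1 before pair 2 here and below, were 22984 and 27251 in the controls and 22320 and 23805 in the silenced clones. The AID-silenced clone of pair 2 lay above the control of pair 1, so the groups overlapped. The difference was −0.04 in pair 1 and −0.19 in pair 2, with a mean of −0.12 ± 0.18 (limma's SE, n = 2 per group). The highest signals of any probe set on these arrays were between 40604 and 53071, and whether differences are compressed at the level of Myc was not tested.

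Max, the partner that Myc needs to bind DNA, was lower in only 1 of the AID-silenced clones by more than a small margin. Its signals were 884 and 924 in the controls and 851 and 407 in the silenced clones. Both AID-silenced clones were below both controls, but pair 1 differed by −0.05 and pair 2 by −1.15. Mlx, a related protein that dimerises with the glucose-sensing Mondo factors and with some Mxd proteins, had 1478 and 1411 in the controls and 1239.5 and 1342 in the silenced clones. These did not overlap, although the differences were only −0.25 and −0.07, and a second probe set for Mlx gave 0.03 and −0.12.

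The 5 antagonists did not move as a group. Mxd1 and Mxd4 were higher in both AID-silenced clones, Mxi1 and Mnt lower in both, and Mxd3 opposite at its brightest probe set. Mxd1, which rises as many blood cells mature, had 67.0 and 110.8 in the controls and 123 and 153 in the silenced clones. Neither group reached into the other, and the mean difference was 0.58 ± 0.37 (limma's SE, n = 2 per group). These signals were low, above the mean signal of about 49.4 needed for testing but not among the brightest 25% of probe sets. A second tested probe set for Mxd1 was higher too, at 127 and 115 against 75.0 and 56.0. Mxd4 had 494 and 496 in the controls and 574.5 and 656 in the silenced clones, but 2 of its 3 other probe sets went opposite ways in the pairs.

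Mxd3, an Mxd protein of proliferating cells, depended on the probe set. The brightest gave 276 and 329 in the controls and 259 and 562 in the silenced clones, so that only pair 2 was higher, by 0.74. The other probe sets were higher in both pairs, by 0.51 and 0.68 at one and by 0.65 and 0.98 at the other. Mxi1, also known as Mxd2, showed the reverse. It had 2483.5 and 2591 in the controls and 2193 and 1364 in the silenced clones, with differences of −0.18 and −0.92, and its second probe set gave −0.35 and −0.87. Mnt, the antagonist present in most dividing cells, had 1201 and 1837 in the controls and 1139.5 and 1250.5 in the silenced clones. Its high control value in pair 2 set its difference of −0.55 there, against −0.08 in pair 1. Max, Mxi1 and Mnt were thus all much further apart in pair 2 than in pair 1.

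**Figure D2:**
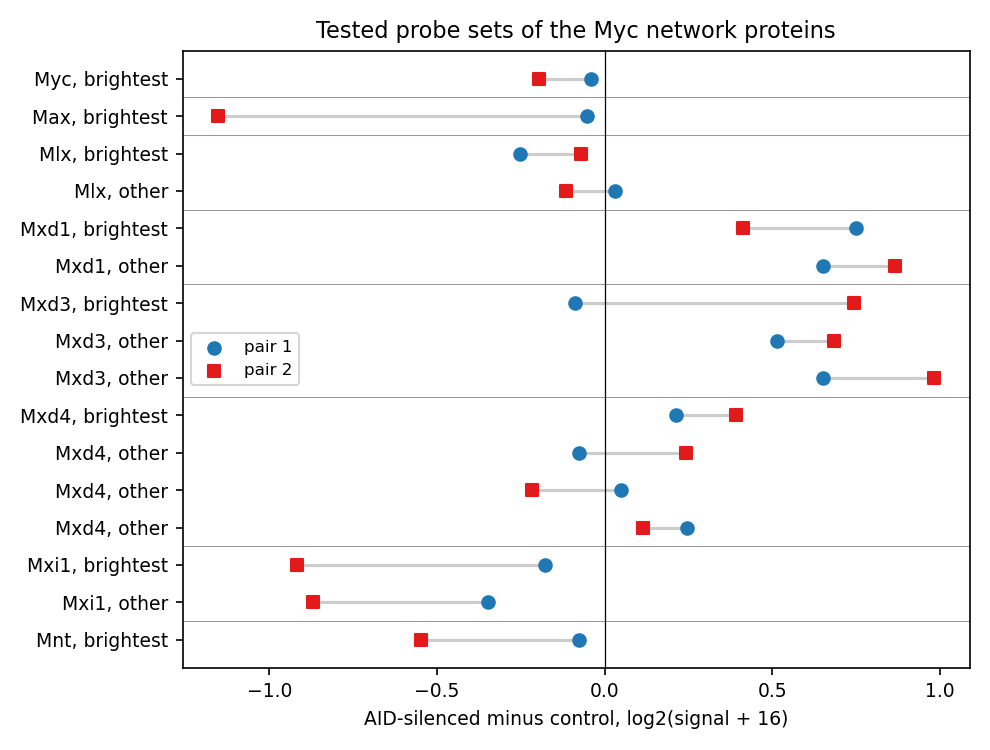
AID-silenced minus control on the log2(signal + 16) scale (x axis) for every tested probe set of Myc, Max, Mlx and the 5 antagonists (rows), with circles for pair 1 and squares for pair 2. Both probe sets of Mxd1 lie right of 0 and both of Mxi1 left of it, while those of Mxd3 and Mxd4 disagree among themselves.

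The 4 members that are Myc targets outside the nucleolus were Odc1 and Srm, which make the polyamines putrescine and spermidine, Cad, which carries out the first steps of pyrimidine synthesis, and Cdk4, the cyclin D kinase. All 4 were lower in both pairs, with mean differences between −0.20 and −0.15, 2 of them with overlapping groups. In a wider list of such targets, given below, 10 of 25 were lower in both pairs. Cdk4 had 7592 and 8510 in the controls and 6824 and 7324 in the silenced clones, without overlap, and its other probe sets gave nearly the same differences, from −0.19 to −0.15. Cad had 4857 and 5737 against 4400 and 4802, also without overlap. Srm had 15594 and 23810 against 13801 and 21711, so its pairs were about as far apart in each group, by 0.61 and 0.65, and its groups overlapped. Odc1 had 9354.5 and 11812 against 7454 and 11256, and its 2 dimmer probe sets were lower in pair 1 and higher in pair 2.

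Because Myc and Max bind the E-box CACGTG, the promoters of the members were searched for these letters, which read the same on both strands. Windows of 300 bases, from 250 before to 50 after a gene's start, came from RefSeq on GRCm38.p6, a C57BL/6J assembly and not the BALB/c genome of these cells. Of 29 members with a window, 8 held the motif (27.6%), as did 7 of 22 members that were lower in both pairs (31.8%), against 8.09% of all 27025 genes. Of 61 further ribosome biogenesis genes with a window, 14 held it (23%). Myc, Npm1, Fbl, Srm, Bop1 and Rrp12 had no window. Among the 8, Max, Mlx, Mnt and Mxd4 are Myc network proteins. The members were chosen partly as known Myc targets, and the share of all genes was not limited to genes expressed here. Per window the shares were 21.1% for the members and 7.15% for all 32851 windows. Cdk4 held 4 copies, starting 172, 118, 98 and 11 bases before the gene start. Nop2, Mnt, Mlx, Mxd4, Max, Pes1 and Utp20 held 1 each, that of Max across the start itself and those of Pes1 and Utp20 after it. The motif therefore occurred before genes that were lower in both pairs (Cdk4, Nop2, Mnt, Mlx) and before Mxd4, which was higher in both. The 250 bases before the start are shown for Cdk4, the member with the most copies, for Nop2 and Mnt as a target and an antagonist with 1 copy, and for Ppan, the member with the lowest mean difference, whose window held none. Capitals mark the motif.
Cdk4, chr10:127063285-127063534, plus strand: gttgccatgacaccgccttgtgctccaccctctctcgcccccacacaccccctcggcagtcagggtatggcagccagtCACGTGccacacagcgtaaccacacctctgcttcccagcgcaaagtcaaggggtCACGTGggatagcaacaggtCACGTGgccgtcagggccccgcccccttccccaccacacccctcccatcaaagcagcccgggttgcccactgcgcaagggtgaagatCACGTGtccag
Nop2, chr6:125131633-125131882, plus strand: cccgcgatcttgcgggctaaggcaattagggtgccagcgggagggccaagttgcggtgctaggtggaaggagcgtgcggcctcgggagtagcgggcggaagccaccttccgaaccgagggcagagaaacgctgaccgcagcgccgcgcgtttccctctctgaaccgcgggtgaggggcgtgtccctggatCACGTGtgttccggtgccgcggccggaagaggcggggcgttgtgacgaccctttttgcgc
Mnt, chr11:74830674-74830923, plus strand: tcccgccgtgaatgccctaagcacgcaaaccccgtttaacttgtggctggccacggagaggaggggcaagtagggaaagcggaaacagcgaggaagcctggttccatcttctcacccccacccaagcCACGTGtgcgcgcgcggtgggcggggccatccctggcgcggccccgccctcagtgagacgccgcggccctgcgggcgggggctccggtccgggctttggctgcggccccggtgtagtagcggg
Ppan, chr9:20887925-20888174, plus strand: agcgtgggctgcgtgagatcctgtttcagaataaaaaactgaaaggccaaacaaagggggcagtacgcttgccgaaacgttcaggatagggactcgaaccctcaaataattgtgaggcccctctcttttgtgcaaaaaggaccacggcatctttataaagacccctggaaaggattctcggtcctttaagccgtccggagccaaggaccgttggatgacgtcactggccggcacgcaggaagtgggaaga

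The factors of RNA polymerase I differed little. Polr1a, its largest subunit, had 1782 and 2067 in the controls and 1432.5 and 1761 in the silenced clones. Both AID-silenced clones lay below both controls, and all 3 tested probe sets of Polr1a were lower in both pairs. Polr1b, the second largest subunit, had 1439.5 and 2212.5 against 1295 and 2059, and Ubtf, which opens the ribosomal genes for transcription, had 2122 and 3850 against 2161.5 and 3232. For both of these the pairs were further apart than the groups, and Ubtf was opposite, at 0.03 in pair 1 and −0.25 in pair 2.

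Of the 4 nucleolar proteins, 3 were lower in both pairs. Npm1, or nucleophosmin, a chaperone of the nucleolus, had 26798 and 29419 in the controls and 21477 and 26315 in the silenced clones, without overlap. Its second probe set, nearly as bright, had 24362 and 27521 against 22328 and 24868, with overlapping groups and differences of −0.13 and −0.15. Ncl, or nucleolin, had 22784 and 28010 against 18534 and 26330. Its differences ran widely over 5 probe sets, from −1.22 in pair 1 and −1.04 in pair 2 at the dimmest to −0.20 and 0.21 at the second brightest. Nolc1, which shuttles between nucleolus and Cajal bodies, gave −0.20 and −0.13. Gnl3, the GTPase nucleostemin, was opposite, with 6570 and 7661 in the controls and 5507 and 7784 in the silenced clones.

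Small nucleolar ribonucleoproteins come in a box C/D kind, which methylates ribosomal RNA, and a box H/ACA kind, which makes pseudouridine. Of the box C/D core, Nop56 had 14104 and 17381 in the controls and 9612 and 13471 in the silenced clones. The groups did not overlap, the mean difference was −0.46 ± 0.23 (limma's SE, n = 2 per group), and the second probe set gave −0.51 and −0.32. Its partner Nop58 had 9382 and 11578 against 7940 and 9534, and the methyltransferase Fbl, or fibrillarin, had 7171 and 8655 against 6492 and 7620. Both were lower in each pair with overlapping groups. Rrp9, a protein specific to the U3 particle, was the exception, at 2940 and 4648 against 3288 and 4368, higher in pair 1 and lower in pair 2.

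Dkc1, or dyskerin, the pseudouridine synthase of the H/ACA particles and a part of telomerase, gave lower values in both pairs with each of its 3 probe sets. The brightest had 8088 and 9631 in the controls and 5089 and 8131 in the silenced clones, a difference of −0.67 in pair 1 and −0.24 in pair 2. The second brightest gave −0.69 and only −0.03, and the dimmest −1.59 and −0.48. The remaining core proteins of these particles, picked out after their values were seen as the partners of Dkc1, were Nop10 at −0.50 and −0.82, Gar1 at −0.31 and −0.28 and Nhp2 at −0.27 and 0.00. Nop10 had 11538 and 12687 in the controls and 8170 and 7175 in the silenced clones. Dkc1 was thus furthest apart in pair 1 and Nop10 in pair 2.

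The 3 factors of the small subunit were all lower in both pairs. Nop14 had 3516 and 2723 in the controls and 2852 and 1803 in the silenced clones, and differed by −0.30 and −0.59. It was the 1 member that was lower in pair 2 than in pair 1 in both groups. Utp20, a very large scaffold of the early small subunit particle, had 1939 and 2251 against 1601 and 1783, without overlap. Rrp12, needed for export and maturation of the subunits, had 817 and 815 against 598.5 and 751, also without overlap.

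All 7 measured large subunit factors were lower in both pairs, and Ppan and Nip7 had the lowest mean differences over both pairs among the brightest probe sets of the members. Ppan, a factor for the maturation of large subunit RNA, had 5853 and 6140 in the controls and 3259 and 4034 in the silenced clones. The controls were close together and well above both AID-silenced clones, a mean difference of −0.72 ± 0.21 (limma's SE, n = 2 per group), or 1.65-fold, with limma's unadjusted p = 0.0121 and adjusted p = 0.9996. Nip7, which acts in the processing of both subunits' RNA, had 5630 and 4300 against 2777 and 3504. Its differences were −1.02 in pair 1 and −0.29 in pair 2, with limma's unadjusted p = 0.0313 and adjusted p = 0.9996, while its second, much dimmer probe set gave 0.02 and −0.29.

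Pes1, Bop1 and Wdr12 form the PeBoW complex, which is needed to make the large subunit RNA. Pes1 had 2343 and 3085 in the controls and 1929.8 and 2332 in the silenced clones. Its second probe set was lower by more, −0.85 and −0.80. Bop1 had 3587 and 4712 against 3115 and 4027, with −0.50 and −0.41 at its second probe set. Wdr12 had 4800 and 4989 against 4559 and 4878.5, a mean difference of only −0.05. The complex's members thus had the same sign and different sizes. Nop2, a methyltransferase of large subunit RNA, gave −0.36 and −0.19 without overlap, and Nop16 gave −0.18 and −0.18 with overlap. The shared probe set of Mrto4 and its pseudogenes, not counted above, had 4298 and 5041 in the controls and 3646 and 4835 in the silenced clones.

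**Figure D3:**
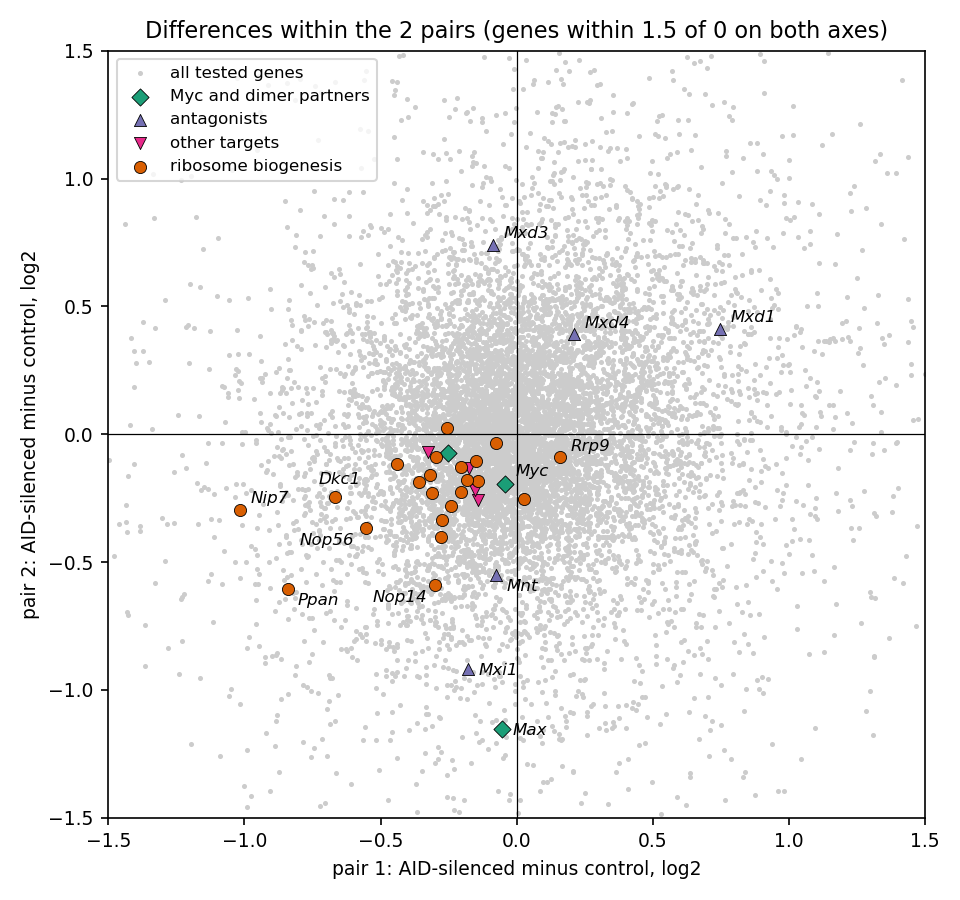
AID-silenced minus control in pair 1 (x axis) and pair 2 (y axis), both in log2 units, for the members by role (coloured marks) and all other tested genes within 1.5 of 0 (grey). Most ribosome biogenesis genes lie in the lower left quadrant, Ppan and Nip7 farthest out, while Mxd1 and Mxd4 lie in the upper right. Max and Mxi1 are also in the lower left, mainly through their low place on the y axis.

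Within the members the sizes of the differences in the pairs were only loosely related (Pearson r = 0.36 and Spearman rho = 0.28 over 34 genes, which share the same 4 arrays), against r = 0.19 and rho = 0.13 over all tested genes. Other probe sets of the members mostly had the same sign. Of 33 further tested probe sets, 20 were lower in both pairs, 4 were higher in both and 9 were opposite. Of all tested genes, at their brightest probe sets, 27.5% were lower and 26.7% higher in both pairs. In 12 of 21 genes with at least 2 tested probe sets, all of them were lower in both pairs. Neither count was made over all probe sets or genes, and probe sets of 1 gene read the same 4 arrays, so they are not independent. The members lay on 16 chromosomes, with at most 5 on 1, chromosome 11, and the 28 lower members were spread over 15 chromosomes. That spread covers the members only. Whether genes close together on a chromosome, in this or the wider lists, differed together in a clone was not tested.

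A wider list of 73 ribosome biogenesis genes, none of them members, leaned the same way. In both pairs 46 of the 73 were lower (27.5% of all tested genes), 4 were higher and 23 were opposite. Both AID-silenced clones were below both controls for 28 of them (14.4% of all tested genes), and their median differences were −0.25 in pair 1 and −0.14 in pair 2. The genes furthest from 0 in both pairs were lower by similar amounts. Las1l, which takes part in cutting the spacer of the large subunit precursor, had 2807 and 2424 in the controls and 1574 and 1651 in the silenced clones. Rrp15 had 2966 and 2553 against 1654 and 1850. Utp4, of the complex that first joins the precursor RNA, had 8564 and 7622 against 4756 and 5773. In these genes, and in Nop10, the controls stood clearly above both AID-silenced clones. The 4 that were higher in both pairs were Lsg1, Noc2l, Urb1 and Utp3, at mean differences between 0.25 and 0.37. By limma 0 of the 73 had an adjusted p under 0.05. Limma's unadjusted p was under 0.05 for 5, all lower, against 1.66% of tested genes lower and 3.89% in either direction. An adjusted p of 0.9996 was the value for each gene of this list named here.

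**Figure D4:**
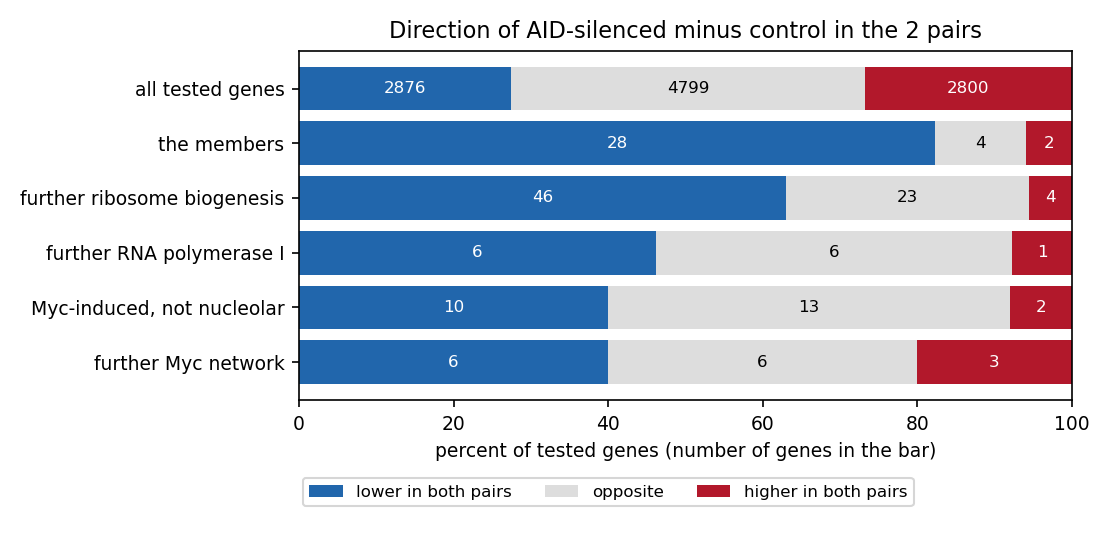
Share of the tested genes of each list (x axis, percent) that were lower in both pairs (blue), opposite (grey) or higher in both pairs (red), with the number of genes in each part. Of the members 28 of 34 and of the further ribosome biogenesis genes 46 of 73 were lower in both pairs, against 2876 of 10475 tested genes.

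Other lists around Myc were counted in the same way, beside the 27.5% of all tested genes that were lower and the 26.7% that were higher in both pairs. Of 13 further RNA polymerase I genes, 6 were lower in both pairs, 1 was higher and 6 were opposite, with medians of −0.12 and −0.03. Polr1c, a subunit shared with RNA polymerase III, had 3236 and 2998 in the controls and 2358 and 2697 in the silenced clones, Taf1d was at −0.17 and Polr1e at −0.08, while Polr2h, a subunit of all 3 polymerases, was at 0.20. Of 25 Myc-induced genes outside the nucleolus, 10 were lower in both pairs, 2 higher and 13 opposite. Among them Bcat1, the cytosolic transaminase of branched amino acids, had 6193 and 6361 against 4653 and 5199.5, and Ctps, which makes CTP, had 3360 and 4591 against 2853 and 3519. Tfrc, the transferrin receptor, was at −0.37 and −0.39 but varied far more between pairs, with 5172 and 19290 in the controls and 3991 and 14708 in the silenced clones. Cdc25a, a phosphatase that drives the cell cycle, went the other way, at 0.29 and 0.46.

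Of 15 tested genes that regulate or resemble the Myc network, 6 were lower in both pairs, 3 were higher and 6 were opposite. Mycn, a close relative of Myc, had 22.4 and 91.2 in the controls and 126 and 149 in the silenced clones, and the lowest of these lay below the highest bacterial control signal on its array. Skp2 and Fbxw7, which are parts of ubiquitin ligases for Myc, were at −0.38 and 0.28, and Sin3b, a corepressor recruited by Mxd proteins, at −0.32. Of 6 tested genes known to be repressed by Myc, 1 was lower, 1 higher and 4 opposite. The higher one was Cdkn2c, an inhibitor of Cdk4, with 1416 and 827 in the controls and 1879 and 1765 in the silenced clones, without overlap. The lower one was Cdkn1b, whose mean difference was −0.02. By limma 0 genes of these 4 lists had an adjusted p under 0.05, and 1, Cdkn2c, an unadjusted p under 0.05 (3.89% of tested genes).

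Most members were bright, and bright genes as a whole leaned slightly lower. Among the brightest 25% of probe sets, 29.0% of genes and 28 of 32 members were lower in both pairs. Among the brightest 10%, a limit chosen after the data were seen, these were 32.5% of genes, 22 of 25 members and 40 of 55 further ribosome biogenesis genes. With quantile normalisation 27 of 34 members were lower in both pairs against 28.5% of genes, and the groups did not overlap for 19 members that were lower, against 15.9% of genes.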

How the data were processed

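RNA from 2 control and 2 AID-silenced clones was hybridised to 1 array each. The deposited table holds linear array intensities, and the authors derived them by MAS5, as the submitters' processing notes state. All arrays were found to share a 2% trimmed mean of 500, so they were not scaled again, and log2(signal + 16) was used. Of 45101 probe sets, 64 controls were left out, and the 22519 at or above the median of the mean log2 value, a mean signal of about 49.4, entered the tests. Symbols came from the platform annotation, and probe sets with several were named for none. Groups were compared with limma 3.58.1 (R 4.3.3; lmFit and eBayes, trended and robust) on all 4 arrays, with Benjamini-Hochberg adjustment over all tested probe sets and a threshold of 0.05, and the step was tested on simulated data. Lists were described by counts and medians within pairs, with no test.

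The titles number the pairs, and by the series' design text RNA was extracted and hybridised from 2 pairs of cells, so the numbers were taken to pair the clones. Pair 2 minus pair 1 in the controls and in the AID-silenced clones correlated at r = 0.306 across tested probe sets. Swapping the numbers within 1 group would only reverse the sign, so this value cannot show that the numbers pair the clones. The alternatives run were quantile or median scaling, a pseudocount of 1 or of 64, no filter and stricter filters, the pair as a block, a plain prior, the mean of probe sets and leaving out each clone. The members and lists were chosen with earlier results of these data known. Named in full were Myc, its partners and antagonists, members with both differences at least 0.2 from 0 on the same side, the 4 opposite members, and up to 4 genes per further list, and other members were named for their roles. With 1 array a clone, the p-values rest on a spread that mixes clonal with technical differences. The SE given for a gene is limma's, from the fit without the pairs. It draws on the spread of all tested probe sets and not on that gene's 4 arrays alone. The number of arrays limits the precision. Figures were drawn with matplotlib 3.10.9.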

Additional observations from a re-analysis of the deposited data

How the results depend on the processing

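No member passed the adjusted threshold in any of the settings run, including the pair as a block, which gave 8 probe sets past it against 2 without. That total was 1 with a pseudocount of 1, 5 with 64, 0 with a plain prior, 1 among the brightest 10%, and 0 to 146 when 1 clone was left out. The members lower in both pairs were 28 of 34 (27.5% of tested genes). With quantile normalisation they were 27 (28.5%), with the mean of probe sets 27 (26.9%) and with median scaling 29 (29.8%). The stricter filter gave 28 of 32 (29.0%) and the brightest 10% gave 22 of 25 (32.5%). Leaving out a clone gives no such count. Members higher in both pairs were 2 (26.7% of tested genes). They were 1 with the stricter filter (1766 of 6794 genes) and 0 among the brightest 10% (711 of 2895 genes). With the mean of probe sets they were 3, and the share of all genes was not counted there. The median of the members' mean differences, −0.20, was −0.18 with quantile normalisation, −0.22 with median scaling and −0.18 with the mean of probe sets. Over all tested genes that median was −0.005, and −0.012, −0.024 and 0.0008 with these settings in turn. In pair 1 the members' median was −0.22 with the stricter filter, −0.24 with the mean of probe sets and −0.24 among the brightest 10%. In pair 2 it was −0.18 with quantile normalisation, −0.23 with median scaling, −0.21 with the stricter filter and −0.22 among the brightest 10%.

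Leaving out 1 clone unbalances the pairs, and 28 of 34 members were higher in pair 2 in both groups (26.4% of tested genes). The members' median then ran from −0.38 when pair 2 lost its AID-silenced clone and −0.37 without the control of pair 1 to −0.10 with pair 1's AID-silenced clone left out and −0.062 without the control of pair 2. With 1 clone against 2, non-overlap is easier for any gene: 29 members were lower without overlap without the control of pair 1 (32.0% of tested genes) and 29 when pair 2 lost its AID-silenced clone (29.9%), but 15 without the control of pair 2 (33.7%) and 15 when pair 1 lost its AID-silenced clone (33.8%). With all clones the counts were 19 of 34 with quantile normalisation (15.9%), 13 with median scaling (15.9%), 13 with the mean of probe sets (14.2%) and 10 of 25 among the brightest 10% (15.8%). Of 285 values for the named members under alternatives, 278 kept their sign. The other 7 all came from leaving out a clone. The filters, the pair as a block and the plain prior leave a gene's mean difference unchanged, so those values could not change sign. The same holds for the mean of probe sets where a gene has only 1. Over the 4 omissions Myc ran from −0.24 to 0.0042, with the opposite sign without the control of pair 2. Mxd3 ran from −0.21 (without the AID-silenced clone of pair 2) to 0.86, and Gnl3 from −0.36 to 0.13 (when pair 1 lost its AID-silenced clone). Rrp9 ran from −0.29 to 0.36 and was lower without the control of pair 1 and, at −0.17, when pair 2 lost its AID-silenced clone. Ubtf ran from −0.54 to 0.32 and was higher without the control of pair 2 and, at 0.18, when pair 1 lost its AID-silenced clone.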
